A study of Mus musculus with 8 samples.

Results

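The nuclear regulators known from the choice of olfactory receptor genes were followed in the vomeronasal organ of mice that carried or lacked a working copy of Tex15. The 10 genes were taken by symbol from the deposited expression table: Lhx2, Ldb1, Ebf1, Ebf2, Emx2, Kdm1a, Ehmt1, Ehmt2, Setdb1 and Lbr. The symbols matched 10 of 27532 listed genes, and 10 of 10 were among the 20305 genes tested. None of the 10 passed the test for a difference between the genotypes, and for each the groups overlapped.

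The vomeronasal organ is the pheromone-sensing organ of the nose, and each of its sensory neurons transcribes one or very few receptor genes out of large families. In the main olfactory epithelium, the related choice of a single odorant receptor depends on LIM-homeodomain and Ebf proteins that bind receptor enhancers, on the bridging protein Ldb1 that joins those enhancers, and on heterochromatin marked by methylation of lysine 9 of histone H3, which keeps the other receptor genes silent. The histone demethylase Kdm1a is needed at the onset of that choice, and loss of the inner nuclear membrane protein Lbr accompanies the folding of silent receptor genes into the nuclear interior. Tex15 is known from the male germ line, where it takes part in silencing transposable elements.

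One bulk polyA RNA-seq library was made from each of 8 adult mice, 4 heterozygous for Tex15 and 4 Tex15 knockout. The heterozygous animals were 1 male of 11.4 weeks (replicate 1) and 3 females of 14.6, 11.9 and 11.9 weeks (replicates 2 to 4). The knockout animals were 1 female of 11.9 weeks (replicate 1) and 3 males of 11.9, 11.9 and 12.1 weeks (replicates 2 to 4). By the animal numbers in the labels, heterozygous replicates 1 and 2 came from an earlier-numbered set and the other 6 libraries from a later one, so the earlier animals were heterozygous only. The library titles also end in numbers that the labels do not explain: heterozygous replicates 1 and 2 and knockout replicate 4 each have one of their own, and the other 5 libraries share one. Genotype and sex were also unbalanced, the controls carried a Tex15 mutation on one chromosome, and no wild-type animal was analysed here. The labels name neither the strain nor the design of the mutant allele. Whole organs were used, so the libraries hold neurons, supporting cells, glands, vessels, cartilage, fat, immune cells and blood together. Fewer cells of a type cannot be told apart from less RNA per cell.

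Tex15 itself was at 2.52 ± 0.279 transcripts per 1000000 (TPM; SD, n = 4) in heterozygous and 1.09 ± 0.155 TPM (n = 4) in knockout libraries. The groups did not overlap, at 2.27 to 2.81 against 0.870 to 1.23 TPM, but with a log2 difference of -1.22 (SE 0.38) the limma adjusted p was 0.794. It was 0.112 after median-ratio scaling, and limma-voom on recovered reads called Tex15, at -1.63 (SE 0.28, adjusted p 0.0359). The sums recovered from the TPM steps were 17889133 to 26420260 reads per library, and 3 reads of a transcript of 2 kb were worth 0.0916 to 0.163 TPM. Mature vomeronasal neuron markers summed to 839 to 2105 TPM in heterozygous and 1319 to 1798 TPM in knockout libraries. The lowest of these sums, in heterozygous replicate 1, went with Omp, the olfactory marker protein, at 66.6 TPM there against 571 to 943 TPM in the other libraries. Without Omp the remaining 7 markers summed to 509 to 1163 TPM and 748 to 1049 TPM, with heterozygous replicate 2 the lowest. Omp had a log2 difference of 1.28 (SE 0.53), with an unadjusted p of 0.0118 and a limma adjusted p of 0.702. Without heterozygous replicate 1 its heterozygous mean, 804 ± 162 TPM (SD, n = 3), was above the knockout mean of 678 ± 75.9 TPM. Main olfactory neuron markers summed to 113 to 323 and 84.8 to 103 TPM, with 323 TPM in heterozygous replicate 2. In that library supporting cell markers summed to 5435 TPM, against 1836 to 2788 TPM in the others, and red blood cell markers to 20930 TPM, against 3900 to 14334 TPM. All 6 cartilage and bone markers lay above the median gene, with a median of 0.52, and 3 had an unadjusted p under 0.05 with 0 called by limma. Further lists covered cells that also use a factor: fat cells (Ebf1, Ebf2), B cells (Ebf1) and granulocytes (Lbr). Fat cell markers summed to 54.4 TPM in heterozygous replicate 3, against 1.53 to 7.31 TPM in the others. All 5 tested lay below the median gene, with a median of -0.97 and 0 called. B and plasma cell markers were also highest there, at 1331 TPM against 349 to 964 TPM. Other immune markers were highest in knockout replicate 3, at 4800 TPM against 1595 to 3478 TPM. The part of these cells in the factors' values was not tested. The share of TPM taken by the 20 most abundant genes ran from 30.4% to 55.3%.

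Over all genes, limma with Benjamini-Hochberg adjustment and a sex term called 119 of 20305 genes, 43 higher and 76 lower in the knockouts, which is 0.586% of those tested. After scaling the libraries by median ratios it called 28 higher and 127 lower, which is 0.767% of 20197. The balance as deposited depended on single libraries, at 69 higher and 42 lower without knockout replicate 1 and 126 higher and 128 lower without heterozygous replicate 4. None of the 10 factors was among the called genes in either fit, and none reached an unadjusted p of 0.05, which 3.10% of genes did as deposited and 5.42% after scaling. The count model limma-voom on recovered reads called 0 of the 10 as well, against 0.834% of 20270 genes, again with 0 at an unadjusted p under 0.05, which 4.86% of genes reached. Fold changes are given as log2 differences, knockout minus heterozygous, relative to the median tested gene, which stood 0.19 higher in the knockouts on the log2 scale as deposited and at -0.01 after scaling. They are on the log2(TPM + 0.5) scale, each p refers to the difference before that subtraction, and the 95% confidence interval (CI) belongs to the value printed.

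Lhx2, a LIM-homeodomain factor needed for olfactory neuron differentiation and receptor expression, lies at chr2:38339281-38369733 on the plus strand of GRCm38 (ENSMUSG00000000247). Its levels were 16.6, 9.67, 23.4 and 21.4 TPM in heterozygous replicates 1 to 4 and 14.7, 17.4, 20.1 and 25.3 TPM in knockout replicates 1 to 4. Heterozygous replicate 2 was the lowest and knockout replicate 4 the highest, and the groups overlapped. The means were 17.8 ± 6.11 and 19.4 ± 4.53 TPM (SD, n = 4 each). The log2 difference was -0.14 (SE 0.39, 95% CI -0.95 to 0.67), with a limma adjusted p of 0.9995, as for the other 9 factors. After median-ratio scaling it was -0.16 (SE 0.14, 95% CI -0.49 to 0.16), with a limma adjusted p of 0.949, and over the 10 factors these ran from 0.943 to 0.998. The value as deposited turned to 0.016 without the sex term and was -0.27 with it in the 6 later-numbered animals.

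The bases just upstream of the Lhx2 start carry 4 GC boxes, the letters GGGCGG on either strand, and are shown because these letters were the motif met most often before the factors' start sites. They are the 133 bases at chr2:38339148-38339280 on the plus strand of GRCm38.p6, from RefSeq, with the matches in capitals.
Lhx2: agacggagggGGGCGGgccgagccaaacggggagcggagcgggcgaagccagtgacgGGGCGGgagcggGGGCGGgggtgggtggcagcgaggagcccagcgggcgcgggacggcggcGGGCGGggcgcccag
RefSeq gave 14 promoter windows, each of 250 bases before and 50 after a start, for 9 of the 10 factors, with Ebf2 unmatched. GGGCGG was found in 9 of 14 windows, from 7 genes, and in 35.7% of all 32851 promoter windows. The homeodomain letters TAATTA were found in 1 of 14, that of Emx2, and in 5.29% of all windows, and TAATTG in 2 of 14, both of Ldb1, and in 7.9998% of all. The Ebf motif, TCCC and GGGA with any 2 bases between, was in 0 of 14 and in 0.904% of all windows. Both strands were searched, no matches of different motifs overlapped in the factors' windows, and a match describes letters only.

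Ldb1, which has no DNA-binding domain of its own and joins LIM-homeodomain proteins to one another, was the most abundant of the 10 at a mean of 45.0 TPM over the 8 libraries. It lies at chr19:46031570-46045214 on the minus strand (ENSMUSG00000025223). Its levels were 30.9, 24.5, 59.7 and 52.4 TPM in heterozygous replicates 1 to 4 and 45.8, 34.1, 48.5 and 63.9 TPM in knockout replicates 1 to 4. Heterozygous replicates 1 and 2 were below every knockout library and heterozygous replicates 3 and 4 were within the knockout range. The means were 41.9 ± 16.8 and 48.1 ± 12.3 TPM (SD, n = 4 each), a log2 difference of 0.16 (SE 0.38, 95% CI -0.64 to 0.96). After scaling the difference was 0.14 (SE 0.14, 95% CI -0.19 to 0.46). Ldb1 exons share 177 bases with Pprc1 on the other strand, at 2.96 and 3.53 TPM in the 2 genotypes. The kit marks strand per the labels, but whether counting used it is not given in the sources used here, so shared bases leave the Ldb1 value uncertain.

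Ebf1 and Ebf2 are helix-loop-helix factors with a zinc-binding DNA-contact domain, and both are present in developing and mature olfactory neurons. Ebf1 (chr11:44617317-45008091, plus strand, ENSMUSG00000057098) was at 26.0, 16.3, 39.5 and 32.5 TPM in heterozygous replicates 1 to 4 and 23.7, 31.0, 34.5 and 40.2 TPM in knockout replicates 1 to 4. Ebf2 (chr14:67233292-67430918, plus strand, ENSMUSG00000022053) was at 12.5, 10.6, 22.6 and 15.7 TPM in heterozygous replicates 1 to 4 and 10.7, 18.9, 19.9 and 21.6 TPM in knockout replicates 1 to 4. The lowest Ebf2 libraries of the genotypes, heterozygous replicate 2 and knockout replicate 1, were nearly equal, and the groups of both genes overlapped. The Ebf1 means were 28.6 ± 9.85 and 32.4 ± 6.94 TPM, with a log2 difference of -0.09 (SE 0.37, 95% CI -0.87 to 0.69). The Ebf2 means were 15.3 ± 5.27 and 17.8 ± 4.86 TPM, with a log2 difference of -0.12 (SE 0.39, 95% CI -0.93 to 0.69). After scaling the differences were -0.12 (SE 0.13) for Ebf1 and -0.14 (SE 0.18) for Ebf2. Without the sex term the values as deposited turned to 0.072 for Ebf1 and 0.066 for Ebf2. The Ebf2 value was -0.45 without heterozygous replicate 1 and turned to 0.20 without knockout replicate 1. Ebf2 shares 424 exon bases with the antisense gene Gm10860.

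Emx2, a homeodomain factor that many odorant receptors need for normal expression, lies at chr19:59458372-59465357 on the plus strand (ENSMUSG00000043969). Its levels were 33.9, 18.4, 42.4 and 30.0 TPM in heterozygous replicates 1 to 4 and 23.0, 34.6, 33.2 and 44.8 TPM in knockout replicates 1 to 4. The means were 31.2 ± 9.94 and 33.9 ± 8.92 TPM (SD, n = 4 each). The groups overlapped over most of their range. The Emx2 genotype difference was -0.28 (SE 0.36, 95% CI -1.04 to 0.47) as deposited, and -0.0091 without the sex term. After scaling it was -0.31 (SE 0.15, 95% CI -0.66 to 0.04), with an unadjusted p of 0.0647 and a limma adjusted p of 0.943. Emx2 shares 264 exon bases with its antisense gene Emx2os, which was at 4.95 and 5.13 TPM in the genotypes.

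**Figure D1:**
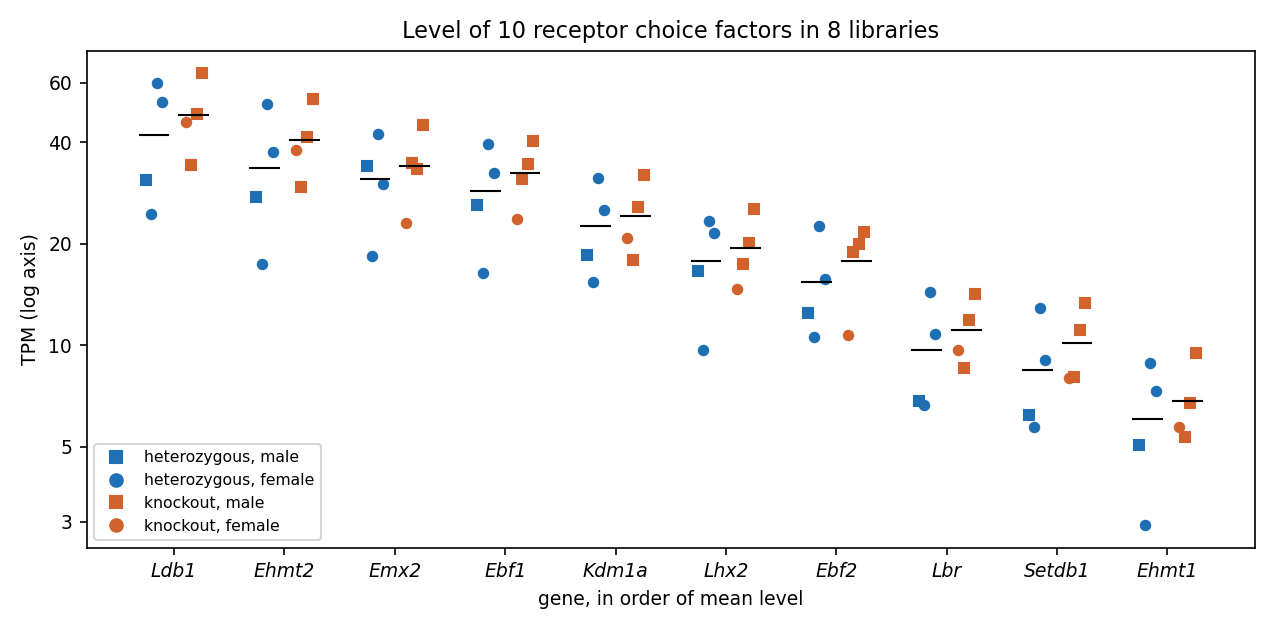
TPM as deposited on a log axis for the 10 genes in each of the 8 libraries, coloured by genotype, with squares for males, circles for females and bars at the arithmetic mean of 4 libraries. Heterozygous replicate 2 is the lowest point for all 10 genes, and the genotypes overlap for each.

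Kdm1a, the lysine demethylase that acts on lysine 4 of histone H3 and has been linked to lysine 9 in receptor choice, lies at chr4:136550540-136602723 on the minus strand (ENSMUSG00000036940). Its levels were 18.5, 15.4, 31.3 and 25.2 TPM in heterozygous replicates 1 to 4 and 20.8, 17.9, 25.7 and 31.9 TPM in knockout replicates 1 to 4. The genotype means were 22.6 ± 7.10 and 24.1 ± 6.09 TPM (SD, n = 4 each), and the groups overlapped. After median-ratio scaling the 8 libraries fell between 20.7 and 24.1 TPM, and the means were 23.2 ± 0.716 and 21.9 ± 1.34. The log2 difference was -0.07 (SE 0.37, 95% CI -0.85 to 0.71) as deposited and -0.09 (SE 0.11, 95% CI -0.34 to 0.15) after scaling.

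Ehmt1 and Ehmt2, also called GLP and G9a, form the enzyme pair that places mono- and dimethylation on lysine 9 of histone H3. Ehmt2 (chr17:34898469-34914052, plus strand, ENSMUSG00000013787) was at 27.4, 17.4, 51.9 and 37.4 TPM in heterozygous replicates 1 to 4 and 37.8, 29.4, 41.4 and 53.5 TPM in knockout replicates 1 to 4. Ehmt1 (chr2:24789928-24919614, minus strand, ENSMUSG00000036893) was at 5.07, 2.93, 8.87 and 7.29 TPM in heterozygous replicates 1 to 4 and 5.74, 5.35, 6.76 and 9.49 TPM in knockout replicates 1 to 4. Both were lowest in heterozygous replicate 2 and highest in knockout replicate 4, and Ehmt1, at 341 to 821 reads a library, had the lowest single count of the 10 genes. The Ehmt2 means were 33.5 ± 14.7 and 40.5 ± 10.01 TPM, with a log2 difference of 0.19 (SE 0.40, 95% CI -0.64 to 1.01). The Ehmt1 means were 6.04 ± 2.60 and 6.83 ± 1.87 TPM, with a log2 difference of 0.01 (SE 0.43, 95% CI -0.88 to 0.91). After scaling the differences were 0.16 (SE 0.16, 95% CI -0.21 to 0.54) for Ehmt2 and 0.01 (SE 0.18, 95% CI -0.40 to 0.41) for Ehmt1. The Ehmt2 value as deposited was 0.085 without knockout replicate 1, 0.089 without heterozygous replicate 2 and 0.29 without heterozygous replicate 1, and 0.039 in the 6 later-numbered animals without the sex term. The Ehmt1 value turned to -0.082 without heterozygous replicate 2 and to -0.030 without knockout replicate 1 or knockout replicate 4. Ehmt1 shares 21 exon bases with Gm37139 on the same strand, a gene at 0.0200 and 0.0378 TPM.

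Setdb1, which trimethylates lysine 9 of histone H3 with the corepressor Trim28, lies at chr3:95323525-95357202 on the minus strand (ENSMUSG00000015697). Its levels were 6.20, 5.70, 12.9 and 9.05 TPM in heterozygous replicates 1 to 4 and 8.02, 8.04, 11.1 and 13.3 TPM in knockout replicates 1 to 4. Heterozygous replicates 1 and 2 lay below every knockout library, while heterozygous replicate 3 lay between the 2 highest knockouts. The means were 8.46 ± 3.29 and 10.1 ± 2.59 TPM (SD, n = 4 each), with a log2 difference of 0.11 (SE 0.40, 95% CI -0.73 to 0.95). After scaling it was 0.10 (SE 0.12, 95% CI -0.18 to 0.37). The value as deposited turned to -0.049 without heterozygous replicate 1 and was 0.27 without knockout replicate 1. Setdb1 shares 249 exon bases with Gm37500 on the other strand, at 0.0406 and 0.101 TPM. It also shares 75 with Cers2 on the other strand, a gene at 34.1 and 36.2 TPM, which is more than Setdb1 itself.

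Lbr, the inner nuclear membrane protein that tethers heterochromatin to the lamina, lies at chr1:181815335-181843046 on the minus strand (ENSMUSG00000004880). Its levels were 6.84, 6.66, 14.4 and 10.8 TPM in heterozygous replicates 1 to 4 and 9.68, 8.57, 11.9 and 14.2 TPM in knockout replicates 1 to 4. The means were 9.67 ± 3.69 and 11.1 ± 2.48 TPM (SD, n = 4 each), and the groups overlapped. After scaling the 8 libraries lay between 8.91 and 10.6 TPM, and the means were 9.75 ± 0.611 and 10.1 ± 0.331. The log2 difference was 0.12 (SE 0.40, 95% CI -0.71 to 0.94) as deposited and 0.10 (SE 0.11, 95% CI -0.15 to 0.35) after scaling. The value as deposited was 0.0072 without heterozygous replicate 1 and 0.22 without knockout replicate 1. Lbr shares 440 exon bases with Dnah14 on the other strand, at 0.0885 and 0.0677 TPM, and 69 with Gm26004 on its own strand.

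The start regions of 2 of the histone methyltransferases hold letters that the other factors' windows lack, and both are printed from RefSeq GRCm38.p6 with the matches in capitals. Setdb1 at chr3:95357233-95357280 on the minus strand has the ETS letters CCGGAAG on both strands, found in 1 of 14 windows and in 8.86% of all. Ehmt2 at chr17:34898438-34898463 on the plus strand has the E-box CACGTG, found in 2 of 14 windows, both of Ehmt2, and in 7.15% of all.
Setdb1: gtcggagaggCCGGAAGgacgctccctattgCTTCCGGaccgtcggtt
Ehmt2: cctccttgtcCACGTGacccggggcg

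**Figure D2:**
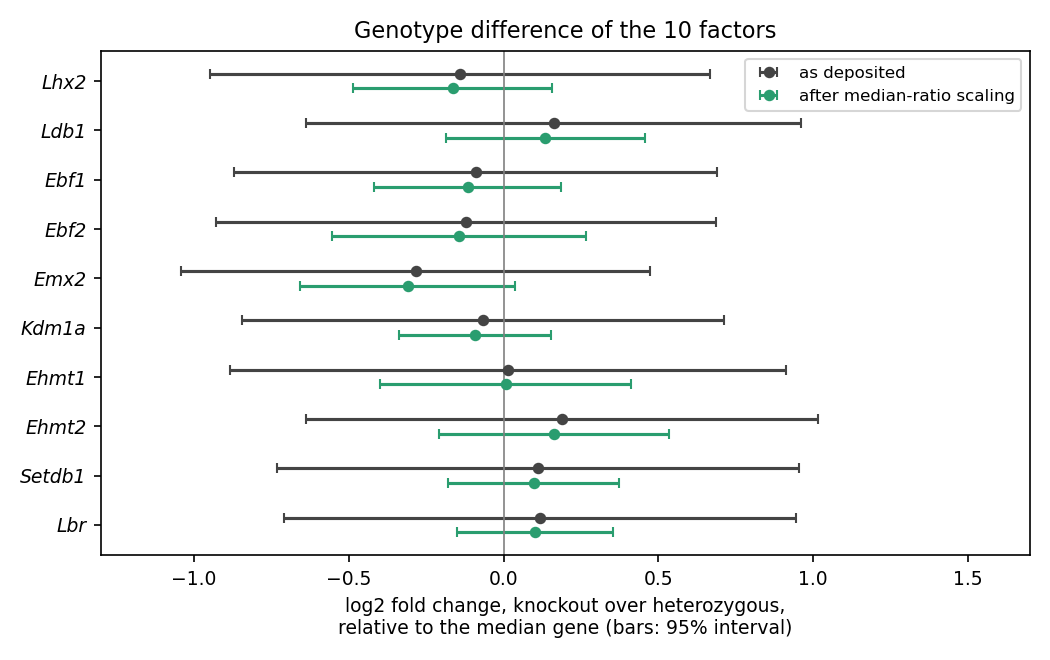
Log2 difference, knockout minus heterozygous and relative to the median tested gene, with 95% confidence intervals from limma, for the 10 genes as deposited and after median-ratio scaling. The point estimates run from -0.28 for Emx2 to 0.19 for Ehmt2 as deposited, the intervals narrow after scaling, and all of those shown contain 0.

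Groups that did not overlap were found for 0 of the 10 genes as deposited, against 1.40% of all tested genes, and for 0 of the 10 after scaling, against 3.31%. On data simulated for the fit to values as deposited, the test called 3% of genes with a true log2 change of 1, 44% with 2 and 98% with 3. The changed genes had a mean log2(TPM + 0.5) above 3, a level that Ehmt1, at a mean of 6.44 TPM, did not reach. Errors were drawn separately for each gene, while the deposited values of many genes moved together between libraries. The percentages may therefore differ for the factors. The scaled fit was not simulated. After scaling, the interval farthest from 0 on the high side reached 0.54 for Ehmt2, and on the low side -0.66 for Emx2. Among the 6 later-numbered animals alone, heterozygous replicates 3 and 4 and the 4 knockouts, the genotype difference as deposited had the opposite sign for 5 of the 10 without the sex term, among them Ldb1 at -0.060 and Emx2 at 0.080. With the sex term it had the opposite sign for 3 of the 10, Ehmt1, Setdb1 and Lbr. None of the 10 was called in those animals, against 0.894% of genes without and 1.80% with the sex term.

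As deposited, the 10 factors followed an order of libraries that much of the table shared. All 10 were lowest in heterozygous replicate 2, as were 53.4% of tested genes, and in all 10 the highest pair of libraries was heterozygous replicate 3 and knockout replicate 4, as in 41.0%. Both held for 30.7% of tested genes. Their summed level was 184, 128, 307 and 242 TPM in heterozygous replicates 1 to 4 and 199.9, 205, 253 and 318 TPM in knockout replicates 1 to 4. The group means of that sum were 215 ± 76.9 and 244 ± 54.9 TPM. The highest library was 2.07 to 3.24 times the lowest, depending on the gene. The share of TPM in the 20 most abundant genes was 55.3%, 48.4%, 30.4% and 40.7% in the heterozygous and 41.5%, 50.95%, 34.6% and 37.8% in the knockout replicates 1 to 4, and its part in the shared movement was not tested. The summed level of Gnai2 and Gnao1, the G proteins of the main vomeronasal neuron classes, also was lowest in heterozygous replicate 2, at 125 TPM, and highest in heterozygous replicate 3, at 333 TPM.

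Median-ratio scaling, which divides each library by the typical ratio of its genes to their mean, separated steady from variable members. The SD of log2 levels over the 8 libraries fell to 0.0737 for Lbr, 0.0767 for Kdm1a and 0.109 for Setdb1. It was 0.145 for Ldb1, 0.190 for Ehmt2, 0.192 for Ebf1, 0.200 for Lhx2 and 0.211 for Ehmt1. Ebf2 at 0.269 and Emx2 at 0.3002 varied most, against a median of 0.266 over all tested genes. As deposited the factors ranged from 0.385 for Kdm1a to 0.538 for Ehmt1, and the median on log2(TPM + 0.5) was 0.434.

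**Figure D3:**
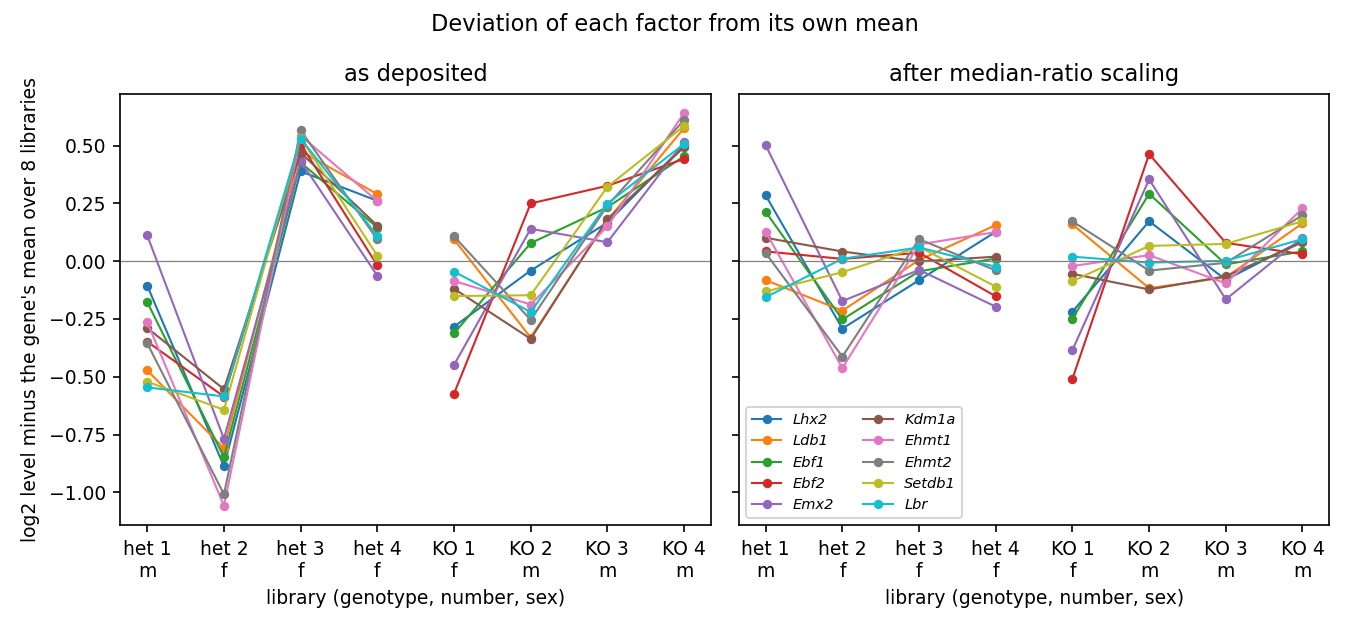
Deviation of each gene in each library from its own mean, in log2 units, as deposited (left) and after median-ratio scaling (right), with lines that only join the points of a gene within a genotype. The shared low of heterozygous replicate 2 dominates as deposited, while after scaling the spread is widest for Emx2 and Ebf2 and narrowest for Lbr and Kdm1a.

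After scaling, the factors differed in the libraries where their largest deviations fell. Emx2 was 0.50 above its mean log2 level in heterozygous replicate 1 and 0.35 above in knockout replicate 2, and it was at -0.38 in knockout replicate 1. Lhx2 was highest in heterozygous replicate 1, at 0.28, and lowest in heterozygous replicate 2, at -0.29. Ebf1 was highest in knockout replicate 2, at 0.29, and at -0.25 in both heterozygous replicate 2 and knockout replicate 1. Ebf2 was at 0.46 in knockout replicate 2 and -0.51 in knockout replicate 1, and at 0.04 in heterozygous replicate 1. Ldb1, the partner of Lhx2, was at -0.08 in heterozygous replicate 1, where Lhx2 was high, and at -0.21 in heterozygous replicate 2, where Lhx2 was low. The methyltransferases Ehmt1 and Ehmt2 were lowest in heterozygous replicate 2, at -0.46 and -0.41.

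Pairs of factors were ranked by the root mean square difference of their scaled log2 profiles over the 8 libraries, a description with no test because the genes share their libraries. Setdb1 and Lbr were the closest at 0.0656, followed by Lhx2 and Ebf1 at 0.0713. The measure also ranks genes as close when both vary little after median-ratio scaling, as Setdb1 and Lbr did. The farthest apart were Ldb1 and Emx2 at 0.348 and Ldb1 and Ebf2 at 0.343. By the same measure over all tested genes, the closest to Lhx2 were Cdip1 at 0.0493 and Vamp2, a synaptic vesicle protein, at 0.0497. The closest to Setdb1 were Scaf8 at 0.0362 and Wapl, the cohesin release factor, at 0.0365, and the closest to Lbr was Pias1 at 0.0225. Kdm1a was nearest to Ric8a at 0.0374, Ldb1 to Sf1 at 0.0421, Ehmt1 to Arrb2 at 0.0446, Ehmt2 to Map3k11 at 0.0450, Ebf1 to Abo at 0.0458, Ebf2 to Brinp2 at 0.0490 and Emx2 to Gdap1l1 at 0.0408.

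By mean TPM over the 8 libraries, a scale corrected for transcript length, the order was Ldb1 at 45.0, Ehmt2 at 37.0, Emx2 at 32.5, Ebf1 at 30.5, Kdm1a at 23.4, Lhx2 at 18.6, Ebf2 at 16.6, Lbr at 10.4, Setdb1 at 9.30 and Ehmt1 at 6.44. The ranges of all neighbours in that order overlapped between libraries. Within a library, Ldb1 was above Ehmt2 in 8 of 8, Ebf1 above Kdm1a in 8 of 8, Kdm1a above Lhx2 in 8 of 8, and Ebf2 above Lbr, Lbr above Setdb1 and Setdb1 above Ehmt1 in 8 of 8 each. Lhx2 was above Ebf2 in 6 of 8, and Ehmt2 above Emx2 and Emx2 above Ebf1 in 5 of 8 each, so these last 3 steps are not ordered by the data. Against all tested genes, Ldb1 stood at the 90.0 percentile of level and Ehmt1 at 49.2.

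Ratios within a library do not depend on how libraries are scaled, and 5 were compared by two-sided exact permutation tests over the 4 against 4 libraries, whose smallest possible p is 0.0286. These tests have no sex term, so each difference was also taken within the sexes and averaged, with labels permuted within sex, an alternative added after seeing the data whose smallest possible p is 0.0625. Lhx2 over its partner Ldb1 was 0.433 ± 0.0696 in heterozygous and 0.410 ± 0.0776 in knockout libraries, differing by -0.09 on the log2 scale (exact permutation p = 0.743, or 0.971 when adjusted over the 5 ratios). Heterozygous replicate 1 at 0.537 and knockout replicate 2 at 0.509 were the high libraries, and the rest lay between 0.321 and 0.414. Within the sexes the difference was -0.31 (exact permutation p = 0.0625, the smallest it can give, and 0.208 adjusted over the 5 ratios). Among males heterozygous replicate 1 lay above the 3 knockouts, and among females knockout replicate 1 at 0.321 lay below the 3 heterozygotes, so that value rests on 1 library on one side of each sex. Over both sexes the difference was 0.021 without heterozygous replicate 1 and 0.025 without knockout replicate 1. Ebf1 over Ebf2 was 1.86 ± 0.262 and 1.86 ± 0.251 (exact permutation p = 0.971, adjusted 0.971). Knockout replicate 1 had the highest Ebf1 to Ebf2 ratio at 2.21 and heterozygous replicate 2 the lowest at 1.54. Its log2 difference of 0.0040 turned to -0.083 without heterozygous replicate 2, to -0.022 without heterozygous replicate 3 and to -0.082 without knockout replicate 1. Ehmt1 over Ehmt2 was 0.1797 ± 0.0126 and 0.169 ± 0.0136, differing by -0.09 on the log2 scale (exact permutation p = 0.286, adjusted 0.786). The ratio ran from 0.152 in knockout replicate 1 to 0.195 in heterozygous replicate 4. Setdb1 over the sum of Ehmt1 and Ehmt2 was 0.221 ± 0.0400 and 0.215 ± 0.0222, with heterozygous replicate 2 the highest at 0.280 (exact permutation p = 0.800, adjusted 0.971). Its log2 difference of -0.03 turned to 0.084 without heterozygous replicate 2 and to 0.037 without knockout replicate 1. Lhx2 over the sum of Gnai2 and Gnao1 was 0.0771 ± 0.00669 and 0.0721 ± 0.00626, differing by -0.10 on the log2 scale (exact permutation p = 0.314, adjusted 0.786). The genotypes overlapped in all 5 ratios. Within the sexes, Ehmt1 over Ehmt2 differed by -0.16 and Lhx2 over the G protein sum by -0.18 (exact permutation p = 0.125 for each, adjusted 0.208). Ebf1 over Ebf2 differed by 0.03 (exact permutation p = 0.875) and Setdb1 over the pair by -0.04 (exact permutation p = 0.9375), both 0.9375 when adjusted.

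**Figure D4:**
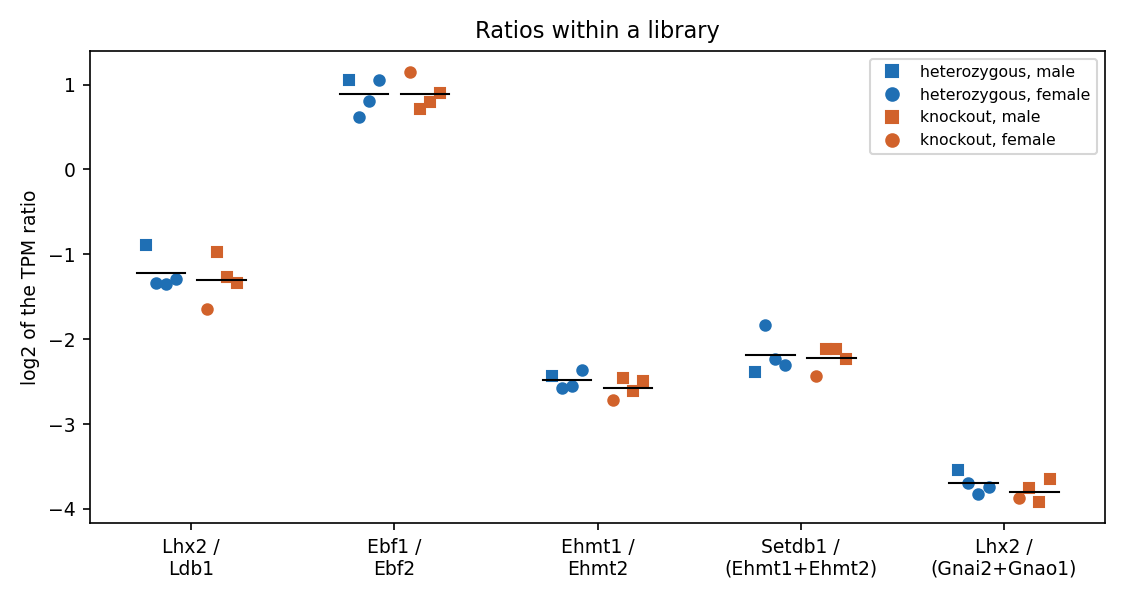
Log2 of the 5 within-library TPM ratios in each of the 8 libraries, coloured by genotype, with squares for males, circles for females and bars at the group means of the log2 values. The genotypes overlap for each ratio, and heterozygous replicate 1 stands above the other heterozygous libraries for Lhx2 over Ldb1.

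Sex was in the fit as a term. It called 10 genes over the whole table, 0.0492% of those tested, and 0 of the 10 factors. Leaving out 1 library gave 11 genes, without knockout replicate 2, to 91, without heterozygous replicate 4, again with 0 factors. Of the 10 factors, 0 reached an unadjusted p of 0.05 as deposited and 2 did after scaling. Over all genes those shares were 2.27% and 5.22%. The log2 differences, male minus female and relative to the median gene, ran from -0.12 for Ldb1 to 0.54 for Emx2 (SE 0.36, 95% CI -0.21 to 1.30). After scaling, Emx2 was 0.55 higher in males (SE 0.15, 95% CI 0.21 to 0.90), with an unadjusted p of 0.00646 and a limma adjusted p of 0.938. Its scaled level was 36.3 ± 7.16 TPM in 4 males and 27.3 ± 2.66 TPM in 4 females, 27.8 to 44.1 against 23.9 to 30.4. Ebf1 was 0.33 higher (SE 0.13), with an unadjusted p of 0.0372 and a limma adjusted p of 0.938, at 32.2 ± 3.19 TPM in males and 26.7 ± 2.54 TPM in females. The Ebf1 ranges, 28.9 to 35.7 in males and 24.5 to 29.4 in females, overlapped as those of Emx2 did, and neither gene passed the threshold. Genotype and sex are partly shared, since 3 of 4 males were knockouts.

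The interaction of genotype and sex rests on 1 library in 2 of its 4 cells. Its estimates cannot be told apart from differences of those single mice, so only effect sizes are given. The largest estimate among the 10 was Ebf2, at 0.64 (SE 0.81) as deposited and 0.60 (SE 0.30) after scaling. In the single female knockout Ebf2 was at 10.7 TPM, against 18.9 to 21.6 TPM in the 3 male knockouts.

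Partners of the 10 factors were described through 7 gene lists of 93 genes, of which 92 were in the table, with Lhx9 unmatched, and 90 were tested. limma called 0 of the 90 higher and 0 lower, again 0 after scaling and 0 by limma-voom, against 0.586% of all genes called. An unadjusted p under 0.05 was reached by 0 of the 90, against 3.10% of all genes. Their median log2 difference was 0.06, with 59 above and 31 below the median tested gene, a median that was 0 by construction over all genes.

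LIM and Ebf relatives, 13 tested genes that include the single-stranded DNA-binding partners of Ldb1, had a median of -0.05, with 4 above and 9 below the median gene. Ebf4, another member of the Ebf family, had the most negative value of this list at -0.49 (SE 0.42), from 4.11 ± 1.80 to 2.499 ± 0.747 TPM, and Zfp521, a zinc finger protein that binds Ebf factors, the most positive at 0.44. The Kdm1a partners, 12 genes that include the corepressor scaffold Rcor1, had a median of 0.04, with 10 above and 2 below, from Rcor1 at -0.11 to Zmym3 at 0.30. The H3K9 methylation and HP1 list, 18 genes, had a median of 0.09, with 14 above and 4 below, from Suv39h1, the pericentromeric lysine 9 methyltransferase, at -0.18 to Morc2a at 0.25. The H3K9 demethylases, 9 of 10 tested, had a median of 0.08, from Kdm4c at -0.02 to Jmjd1c at 0.30.

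The nuclear envelope list, 13 genes around Lbr and the lamins, had a median of 0.12, with 9 above and 4 below, from Tmpo at -0.12 to Sun2, which links the nucleus to the cytoskeleton, at 0.37. The genome architecture list, 15 genes for cohesin, Ctcf and their regulators, had a median of 0.09, with 12 above and 3 below, from Ctcf at -0.06 to Smc1a at 0.32. The receptor feedback list, 10 genes of the unfolded protein response, receptor transport and olfactory signalling linked to the feedback that ends receptor choice, had a median of -0.17, with 2 above and 8 below. Its most negative value was Gnal, the G protein of main olfactory neurons, at -1.06 (SE 0.56), from 6.43 ± 5.75 to 1.95 ± 1.24 TPM, and its most positive was Nfe2l1 at 0.20. Gnal is also one of 8 main olfactory neuron markers, a list that shares Adcy3 with this one too. All 8 lay below the median gene, with a median of -0.59 and 0 called, and their sum was highest in heterozygous replicate 2. The part of main olfactory neurons in the Gnal value was not tested.

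**Figure D5:**
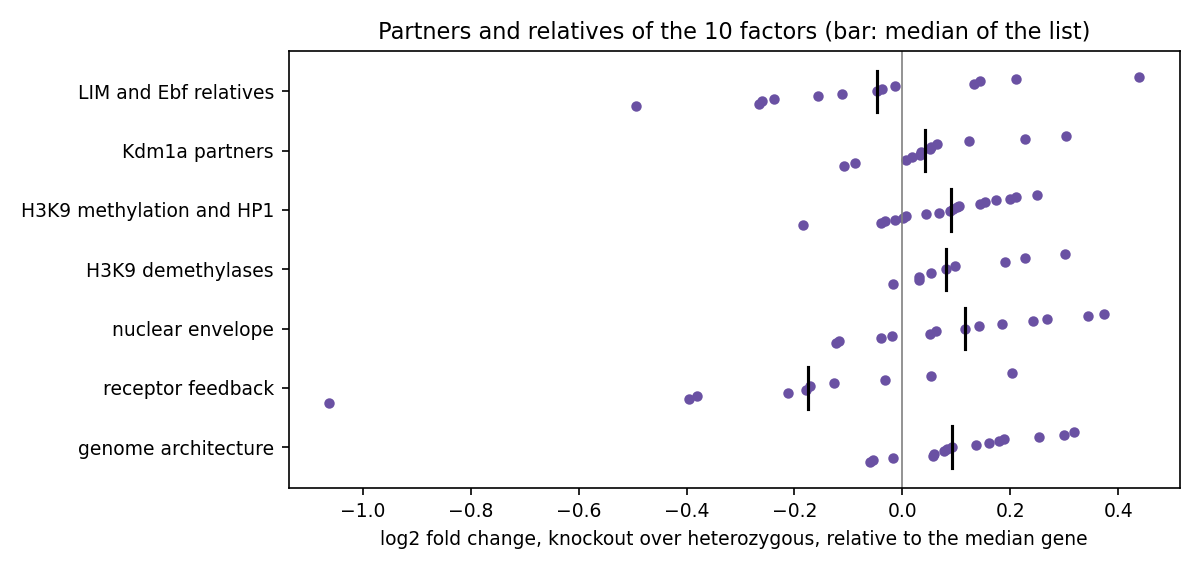
Log2 difference, knockout minus heterozygous and relative to the median tested gene, for each tested gene of the 7 lists of partners and related factors, one point a gene, with the list median marked. Gnal at -1.06 lies farthest from 0, and the list medians lie between -0.17 and 0.12.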

How the data were processed

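Bulk RNA-seq of dissected vomeronasal organs was deposited as 1 table of TPM for 8 mice. Per the labels' protocols, RNA with a RIN above 7 was polyA selected and sequenced as directional paired reads. Per the submitters' processing notes, the tools were Trim Galore 0.6.5, cutadapt 5.1, STAR 2.7.11b and deepTools 3.5.5, with the build GRCm38 (mm10). The step that made the TPM the authors deposited is not given in the sources used here. TPM sums to 1000000 in each library, so a few abundant genes lower all others.

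Genes averaging 0.5 TPM or more over the libraries were tested with limma 3.58.1 in R 4.3.3 on log2(TPM + 0.5), with genotype and sex terms, a variance trend and Benjamini-Hochberg adjustment at 0.05. Replicates are separate mice. GENCODE M21 lengths turned TPM steps into reads, and 97.4% to 98.0% of low values came out within 0.05 of a whole read. Median-ratio scaling, other pseudocounts and filters, no sex term, age in place of sex, a replicate block, the 6 later-numbered animals alone, robust variance and leaving out each library were alternatives. limma-voom on recovered reads, scaling to Gnai2 and Gnao1, and ratios compared within sex were added after seeing the data. The test was checked on simulated data with 20305 genes.

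All 10 factors are named, as are the lowest and highest gene of each partner list by the rule used. The members and lists were chosen with earlier results of these data known.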

Additional observations from a re-analysis of the deposited data

Results flagged for a closer look

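In each of 50 groups of 4 libraries, the gap of the most extreme library to its neighbour was divided by the range of the group and compared with Dixon's 95% critical value, which chance exceeds in about 1 in 20 groups. Values in 2 groups passed. Ehmt1 after median-ratio scaling had a gap of 0.890 of the range among heterozygous libraries, with replicate 2 at 4.396 TPM and the other replicates up to 6.61 TPM. The ratio of Lhx2 to Ldb1, on the log2 scale, had a gap of 0.871 of the range among heterozygous libraries, with replicate 1 at 0.537 and the others between 0.392 and 0.409.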

How the results depend on the processing

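None of the 10 factors was called by genotype under any of 22 settings, the main one included, and the lowest limma adjusted p was 0.767. Small log2 differences changed sign. Without the sex term Lhx2 was 0.016, Ebf1 0.072 and Ebf2 0.066. With age in place of sex Ebf2 was 0.055 and Ehmt1 -0.011. In the 6 later-numbered animals without the sex term, Ldb1 was -0.060, Ebf1 0.021, Ebf2 0.062, Emx2 0.080 and Ehmt1 -0.061, and with it Ehmt1 was -0.13, Setdb1 -0.085 and Lbr -0.026. With limma-voom Ehmt1 was -0.0037. Leaving out each library gave -0.45 to 0.20 for Ebf2, -0.082 to 0.061 for Ehmt1 and -0.049 to 0.27 for Setdb1, and with no change of sign -0.21 to -0.088 for Lhx2, 0.089 to 0.21 for Ldb1, -0.15 to -0.037 for Ebf1, -0.33 to -0.22 for Emx2, -0.11 to -0.041 for Kdm1a, 0.085 to 0.29 for Ehmt2 and 0.0072 to 0.22 for Lbr. For sex it gave -0.096 to 0.12 for Ehmt2, -0.11 to 0.20 for Setdb1 and -0.18 to 0.028 for Lbr, and Ehmt2 was -0.011 without a filter on low values. For the interaction, Lhx2 was 0.040, Ldb1 0.031 and Kdm1a 0.066 without the filter, and Kdm1a 0.025 with a pseudocount of 1. In the later-numbered animals the log2 ratios were 0.015 for Lhx2 over Ldb1, -0.039 for Ebf1 over Ebf2, 0.045 for Setdb1 over Ehmt1 and Ehmt2, -0.12 for Ehmt1 over Ehmt2 and -0.011 for Lhx2 over Gnai2 and Gnao1. Leaving out a library gave -0.20 to 0.025, -0.083 to 0.062, -0.0998 to 0.084, -0.13 to -0.044 and -0.15 to -0.042 for these ratios in that order.

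Genes called over the table numbered 119, against 72 with no filter, 184 in the later-numbered animals, 371 there with sex, and 83 to 254 on leaving out a library: 202 without heterozygous replicate 2, 254 without heterozygous replicate 4 and 190 without knockout replicate 4. The replicate block with sex called 128 genes and 0 factors. Deviations of same-numbered libraries correlated at -0.06, 0.03, 0.10 and -0.00. The labels do not say whether the numbers mark pairs. These values cannot decide it, because same-numbered libraries always differed in sex. The partner lists had 0 genes called under all 21 alternatives. Tex15 had adjusted p values from 0.0359, under limma-voom, to 1 over the alternatives. Each factor had at least 341 reads in each library. The cause of the sign changes was not tested.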
